A study of Caenorhabditis elegans with 2 samples.

Results

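The 33 genes described here encode the subunits of the *Caenorhabditis elegans* proteasome. They are all the protein-coding genes of the Ensembl WBcel235 annotation whose symbol starts with pas-, pbs-, rpt- or rpn-, out of 19973 protein-coding genes on the nuclear chromosomes. The 20S core accounts for 14 of them, 7 *pas* genes of the alpha ring and 7 *pbs* genes of the beta ring. The 19S cap accounts for 19, with 6 *rpt* genes for its ATPases and 13 *rpn* genes for its other subunits. The members were taken by name alone, with no measured value in the rule, though the rule was chosen with earlier results of these data known. The question put to the data was which of these genes carry UNC-98::GFP at their promoters, and whether core and cap genes differ.

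The measurements are ChIP-seq of UNC-98 fused to EGFP, with TY1 and 3xFLAG tags, in strain OP85. These worms are *unc-119(ed3)* mutants that carry the tagged gene as an inserted transgene (wgIs85) together with an *unc-119(+)* rescue copy. Whole L1 larvae, 6 hours old and starved after bleaching, were precipitated with an anti-GFP antibody in 2 biological replicates that form 1 group. No untagged strain was analysed here, so a region that any strain would give cannot be told apart from one that depends on the tag, and because whole animals were used, a region from few cells cannot be told apart from weak binding in many.

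The proteasome degrades proteins marked with ubiquitin. Alpha rings gate a chamber whose inner beta rings hold the proteolytic sites, and the cap that docks on it recognises ubiquitin, removes it, unfolds the substrate with a ring of ATPases and feeds it into the chamber. In *C. elegans* the transcription factor SKN-1 raises expression of proteasome genes when proteasome function fails. UNC-98, the tagged protein, has zinc fingers and is known from the sites where body wall muscle is anchored, and from muscle nuclei.

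UNC-98::GFP regions were called at the promoters of 4 proteasome genes. They were *pas-1* of the alpha ring, *rpt-4* of the ATPase ring, and *rpn-3* and *rpn-11* of the cap's lid, of which *rpn-11* encodes the deubiquitinating enzyme. None of the 7 beta ring genes, which include the proteolytic subunits, had a region in this list. With 3.16% of all protein-coding genes counted, 7 genes would hold few or none, so this zero is no result about that ring. These counts come from the conservative list of 728 regions, called on both replicates at an irreproducible discovery rate (IDR) of 0.01, where a low IDR marks regions that rank alike in repeated lists. A gene was counted when a summit lay between 1000 bp upstream and 500 bp downstream of the 5′ end of one of its protein-coding transcripts. The 4 genes are 12.1% of the members, against 3.16% of all protein-coding genes with a summit by the same rule. No test was made of this difference, because there is 1 group of samples and genes are not replicates.

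The 4 conservative regions, and 1 called at *pbs-1* in replicate 1 alone, are shown by sequence because counts of called genes rest on them. The region called at *pas-5* in replicate 1 alone, with its summit in an exon of F25H2.15, is not shown. Each line gives the plus strand of WBcel235 (ce11), from the RefSeq genome, for up to 151 bases centred on the summit and shortened where an annotated exon begins. Capitals mark matches, on either strand, to the short sequences described further on.
rpn-3, chrIII:8447096-8447226: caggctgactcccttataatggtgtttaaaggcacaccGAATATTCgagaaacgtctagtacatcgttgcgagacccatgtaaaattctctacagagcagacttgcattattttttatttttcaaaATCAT
rpn-11, chrII:4044547-4044693: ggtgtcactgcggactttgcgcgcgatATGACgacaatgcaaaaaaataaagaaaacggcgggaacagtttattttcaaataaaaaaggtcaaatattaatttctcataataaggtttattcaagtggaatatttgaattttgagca
rpt-4, chrII:43716-43866: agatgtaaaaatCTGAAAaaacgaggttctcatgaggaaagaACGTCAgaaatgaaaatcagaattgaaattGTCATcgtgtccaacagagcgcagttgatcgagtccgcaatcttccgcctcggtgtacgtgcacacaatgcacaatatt
pas-1, chrV:14423385-14423535: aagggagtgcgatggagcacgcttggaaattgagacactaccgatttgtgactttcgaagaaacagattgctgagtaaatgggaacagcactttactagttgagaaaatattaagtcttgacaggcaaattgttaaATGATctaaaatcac
pbs-1, chrIV:1709869-1710019: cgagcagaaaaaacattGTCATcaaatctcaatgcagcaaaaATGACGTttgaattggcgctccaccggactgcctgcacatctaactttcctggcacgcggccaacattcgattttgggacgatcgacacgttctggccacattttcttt

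The lid gene *rpn-3* had the highest signal of any member in the conservative list, and it shares its region with a chaperone gene. Its region (chrIII:8446993-8447308, intergenic at the summit) had the deposited signal value 129, the score the authors' software gave it, at a scale that is not stated. That put it at rank 275 of 728 and above the list's median of 105.2, the only member above it. The summit lay 202 bp upstream of the *rpn-3* 5′ end and 242 bp upstream of that of *hsp-110*, which encodes an Hsp110 family chaperone and is read in the other direction; these genes are 443 bp apart, with the non-coding RNA gene C30C11.14 between them. In the replicates' own lists of candidate regions, which hold all ranked regions whether or not they pass the threshold, the signal here was 73.9 in replicate 1 and 49.7 in replicate 2. Among all protein-coding genes, 98.4% had a lower highest signal in replicate 1 and 98.3% in replicate 2, so both replicates placed it near the top.

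The deubiquitinase gene *rpn-11* was the sole gene with its region in the promoter window. The region (chrII:4044460-4044775, intergenic at the summit) had signal 77.7 and rank 560. Its summit lay 72 bp upstream of the outermost 5′ end of *rpn-11*, in the gap of 224 bp between that gene and K07D4.2, which lies upstream on the same strand. The signal was 53.8 in replicate 1 and 31.6 in replicate 2, above that of 97.5% and 94.5% of genes. Both values were lower than those at *rpn-3*.

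The ATPase gene *rpt-4* had the weakest of the 4 conservative regions, and its call rests on an internal 5′ end. The region (chrII:43633-43948) had signal 57.9, at rank 691 of 728. The summit fell inside an intron of the longer *rpt-4* transcript, 129 bp upstream of the 5′ end of the shorter one. The 2 ends are 2554 bp apart. It was also 116 bp upstream of *nfyc-1*, a gene for a subunit of the NF-Y transcription factor that lies within *rpt-4* on the other strand. The signal was 39.6 in replicate 1 and 36.6 in replicate 2, above 96.2% and 96.6% of genes, which placed it near the top in both. The candidate summits were 137 bp and 74 bp from the conservative one in replicates 1 and 2, on opposite sides of it. They lay 8 bp downstream of the shorter transcript's 5′ end in replicate 1 and 203 bp upstream in replicate 2. Whether they mark the same site was not tested.

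The alpha ring gene *pas-1* was counted through a region that lies closer to another gene. The region (chrV:14423302-14423617, intergenic at the summit) had signal 95.8 and rank 430. Its summit was 842 bp upstream of *pas-1* and 156 bp upstream of *rpoa-12*, a gene for an RNA polymerase I subunit. Both genes are read from the same strand, and 106 bp separate *pas-1* from the end of *rpoa-12*. Operons were not analysed here. The signal was 36.8 in replicate 1 and 58.2 in replicate 2, above 95.8% and 98.6% of genes. Replicate 2 placed *pas-1* higher than any other member, and replicate 1 placed it below *rpn-3*, *rpn-11*, *pbs-1* and *rpt-4*.

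**Figure D1:**
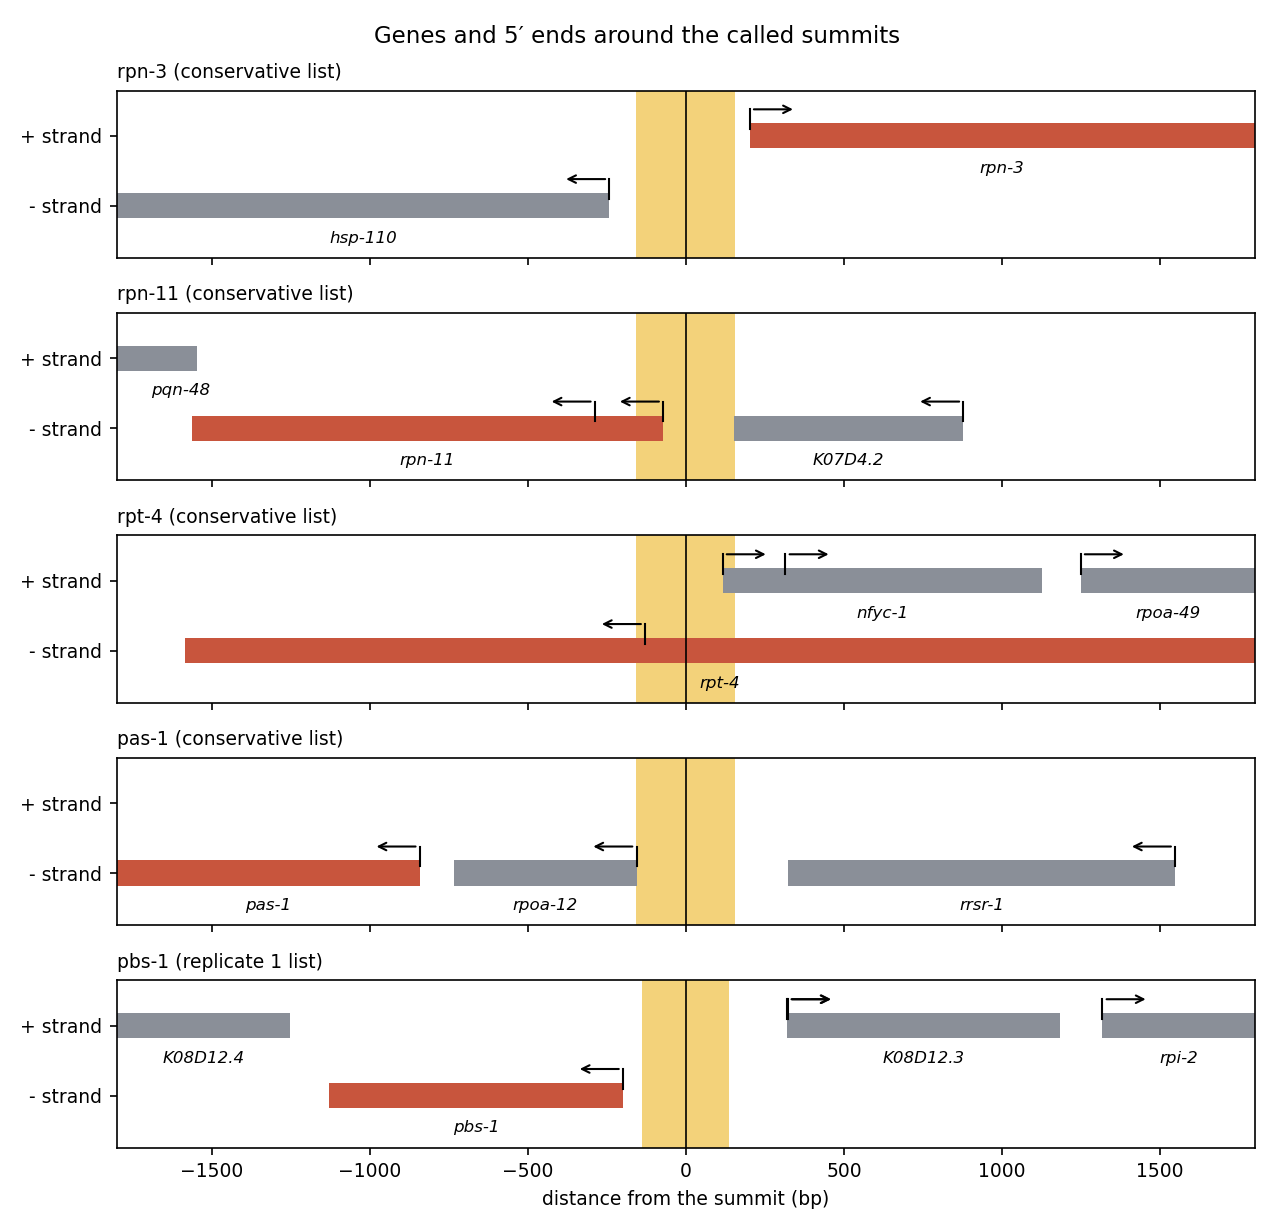
Protein-coding genes around the called summits of *rpn-3*, *rpn-11*, *rpt-4* and *pas-1* (conservative list) and *pbs-1* (replicate 1 list), by distance from the summit in bp. Boxes are gene bodies on the plus (upper) and minus (lower) strand, red for proteasome genes, arrows are 5′ ends, and the yellow band is the deposited region; the summit is 842 bp from *pas-1* and 72 bp from *rpn-11*.

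Each promoter summit was also given to the gene with the nearest 5′ end alone. By that count 2 of 33 members remained, *rpn-3* and *rpn-11*, against 2.26% of all genes. Both encode lid subunits of the cap, and no core gene was left. At that share of all genes, 14 core genes would hold few or none, so this zero is no result about the core. Of all 477 conservative summits in promoter windows, 182 (38.2%) were counted for several genes, and among the 4 at proteasome genes 3 were.

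The other thresholded lists called partly different members. The second list of the series, with 790 regions, held 3 members, *pas-1*, *rpn-3* and *rpn-11*, against 3.38% of all genes. In it the *rpt-4* region was in the ranked list with a −log10 IDR of 1.48, below the threshold of 2. The replicate 1 list of 577 regions held 4 members, *rpn-3*, *rpn-11*, *pbs-1* and *pas-5*, against 2.89% of all genes. The replicate 2 list of 394 regions held 0 members, against 1.79% of all genes. In replicate 2 the −log10 IDR was 0.50 at *rpn-3*, 0.60 at *rpn-11*, 1.05 at *pas-1* and 1.21 at *rpt-4*, so these 4 regions were present among the candidates but did not pass there.

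**Figure D2:**
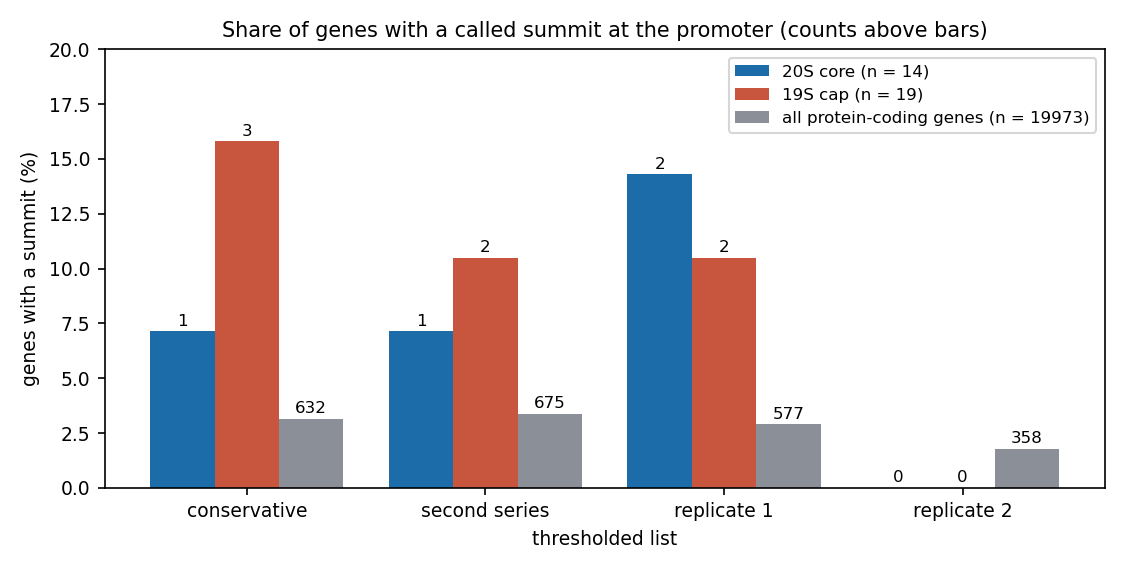
Percent of 20S core genes, 19S cap genes and all protein-coding genes with a summit in their promoter window in each of the 4 thresholded lists, with the number of genes above each bar. Core genes numbered 1, 1, 2 and 0 and cap genes 3, 2, 2 and 0 from left to right.

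The beta ring gene *pbs-1*, which encodes a proteolytic subunit, was called in replicate 1 without a like signal in replicate 2. Its region (chrIV:1709806-1710081, intergenic at the summit) had signal 46.8 and a −log10 IDR of 2.00, at the edge of the threshold. The summit lay 199 bp upstream of *pbs-1* and 321 bp upstream of K08D12.3 on the other strand. In replicate 2 the candidate within 200 bp of this summit had signal 5.24, at rank 95530 of 106737, and the highest one in the whole window had 20.9. The alpha ring gene *pas-5* was called in replicate 1 through a region of signal 11.2, 930 bp upstream, which ranked 61125 of 103403 by signal although its −log10 IDR was 2.21. In replicate 2 the nearest candidate had 37.2, at 187 bp from that summit, but lay further upstream, outside the window. The highest replicate 2 candidate inside the window had 18.4. In the ranked list behind the conservative one, the nearest candidate had signal 2.72, at rank 129522 of 131481. The conservative list had a summit of signal 92.5 at 1117 bp upstream of *pas-5*, just outside the window, while the summit of *pas-1* at 842 bp was the outermost one inside it.

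Beyond these genes, nearly every member had some candidate region, which says little because most genes do. In replicate 1, 30 of 33 members had one, against 86.2% of all genes, and in replicate 2 there were 32, against 88% of all genes. The members with none were *pas-4*, *rpt-2* and *rpn-6.1* in replicate 1 and *pbs-6* in replicate 2, and no member lacked one in both. The median of the members' highest candidate signal was 17.3 in replicate 1 and 20.1 in replicate 2, against 16.9 and 17.1 for all protein-coding genes with a candidate. Above the all-gene median lay 17 members in replicate 1 and 22 in replicate 2. As a group the members were thus close to other genes in replicate 1 and somewhat above them in replicate 2.

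Among the 29 members without a conservative region, the highest candidate signal ranged up to 46.8 in replicate 1 and up to 30.9 in replicate 2, with medians of 16.8 and 19.6. In the ranked list behind the conservative one, the closest to the threshold was *rpn-9*, a lid subunit gene, with a −log10 IDR of 1.02. It had 23.5 in replicate 1 and 30.6 in replicate 2. Next was *rpn-1*, the gene of a large scaffold subunit of the cap, with a −log10 IDR of 0.80, 24.9 in replicate 1 and 24.0 in replicate 2. The ATPase gene *rpt-2* followed at 0.36, and *pbs-6* and *rpn-6.1* had no candidate in that list. This order depends on the list. In the ranked list behind the second series list, *rpn-1* was the closest of these 29 at 0.87, and *rpn-9* had 0.07.

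Among the alpha ring genes, *pas-6* was the highest without a called region by the lower of its standings in the replicates, with 22.8 in replicate 1 and 19.5 in replicate 2. *pas-2* had 17.6 and 24.4, and *pas-3* 15.3 and 15.7. *pas-5*, whose highest candidate in the window was not the region called in replicate 1, had 22.2 and 18.4. *pas-4*, with no candidate in replicate 1, had 13.7 in replicate 2, below the all-gene median. Apart from *pas-1*, no gene of this ring was in the top 10 percent of all genes in either replicate.

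In the beta ring, the proteolytic genes *pbs-1*, *pbs-2* and *pbs-5* were all above the all-gene median in replicate 2, and in replicate 1 *pbs-1* alone of them was. Beside 46.8 in replicate 1 and 20.9 in replicate 2 at *pbs-1*, *pbs-2* had 12.2 and 19.9 and *pbs-5* had 14.2 and 21.4. The structural subunit gene *pbs-7* had 13.3 and 16.7, under the all-gene median in both replicates. *pbs-6* had 21.6 in replicate 1 and no candidate in replicate 2.

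Of the ATPase genes other than *rpt-4*, none was above the all-gene median in both replicates. *rpt-1* had 24.9 in replicate 1 and 11.3 in replicate 2, and *rpt-6* had 9.10 and 25.96. *rpt-3* had 10.6 and 16.0, below the median in both, and *rpt-5* 13.7 and 19.8. *rpt-2* had no candidate in replicate 1 and 20.4 in replicate 2.

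Among the other cap genes, the ubiquitin receptor genes *rpn-10* and *rpn-13* had 22.9 and 12.4 in replicate 1, and 17.8 and 20.7 in replicate 2. The scaffold gene *rpn-2* had 17.0 in replicate 1 and 10.9 in replicate 2, lower than the scaffold gene *rpn-1* in both. Of the lid genes, *rpn-5* had 23.5 and 11.0 and *rpn-7* 13.8 and 18.6. *rpn-6.1*, with no candidate in replicate 1, had 30.9 in replicate 2, and its paralogue *rpn-6.2* had 16.6 in replicate 1 and 20.7 in replicate 2. Only *rpn-1*, *rpn-3*, *rpn-9*, *rpn-10* and *rpn-11* of these genes exceeded the all-gene median in both replicates.

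By the lower of the percentages of genes below it in the replicates, the members ran from *rpn-3* at 98.3% through *rpt-4* at 96.2% and *pas-1* at 95.8% to those with no candidate in one replicate. The lowest members with a candidate in both were *rpn-8*, the partner subunit of RPN-11, at 12.3%, *rpn-12* of the lid at 20.5% and the alpha ring gene *pas-7* at 20.6%. For *rpn-8* the signal was 8.73 in replicate 1 and 2.71 in replicate 2. It was 17.0 and 9.15 for *rpn-12*, and 8.53 and 20.7 for *pas-7*. Low ranks were thus shared by both replicates at *rpn-8* but not at *pas-7*, which was above the all-gene median in replicate 2.

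**Figure D3:**
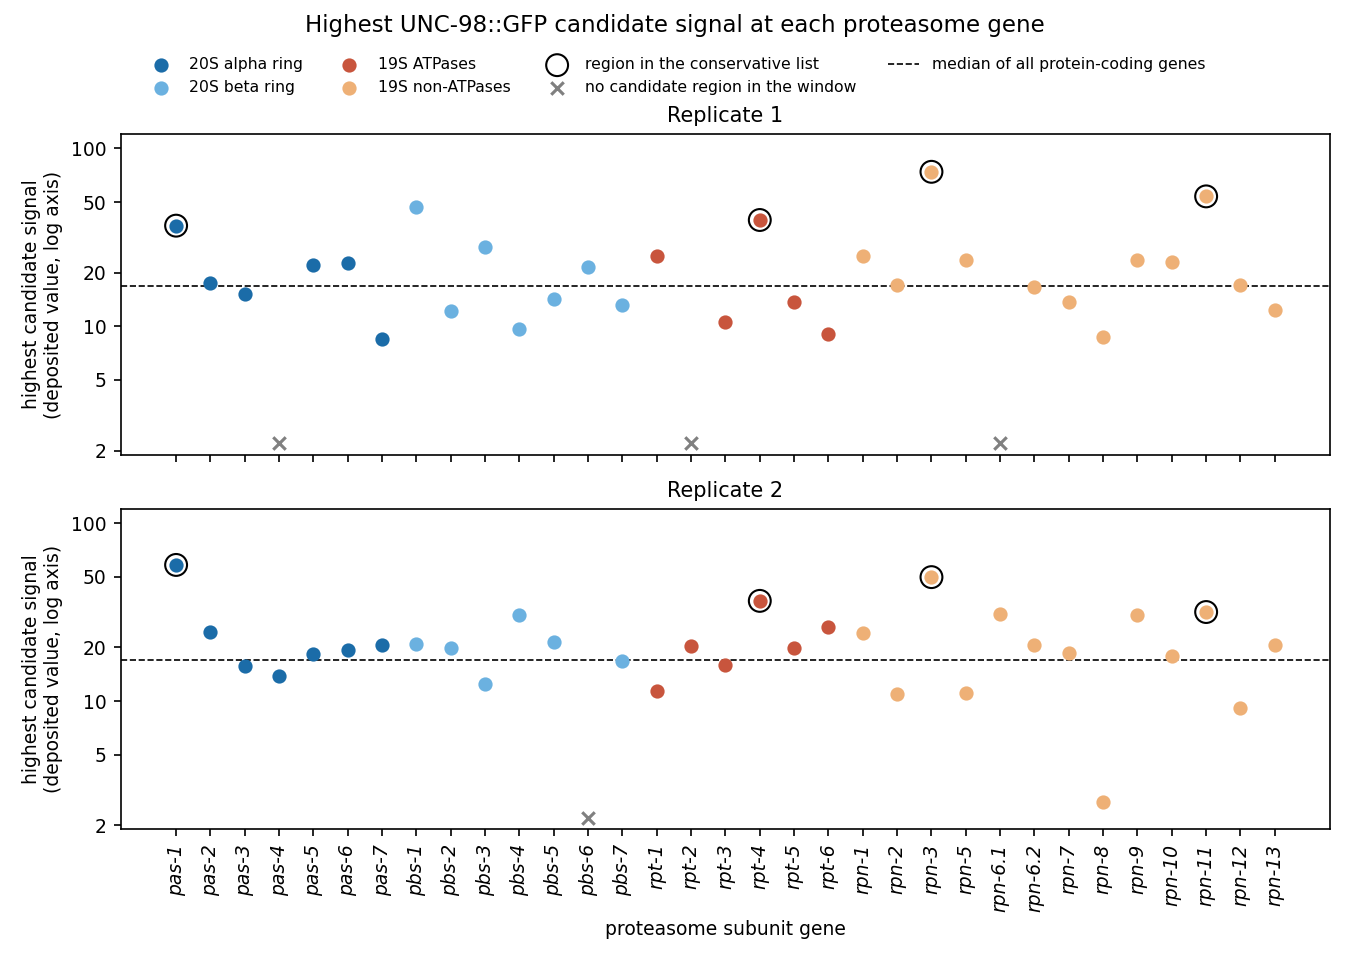
Highest candidate signal in the promoter window of each of the 33 proteasome genes in replicate 1 (upper) and replicate 2 (lower), deposited values on a log axis. Circled points have a conservative region, crosses have no candidate, and the dashed line is the median of all protein-coding genes (16.9 and 17.1).

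Some members were high in both replicates and others in one. Of the members, 4 were among the top 10 percent of genes in both replicates, against 4.31% of all genes, and these were the same 4 with conservative regions. Since that list was called on both replicates, this is not separate evidence about them. A further 5 (15.2%) were in the top 10 percent in 1 replicate only, against 11.4% of all genes. These were *pbs-1* and *pbs-3* in replicate 1, and *pbs-4*, *rpn-6.1* and *rpn-9* in replicate 2, of which *rpn-6.1* encodes a lid subunit. *pbs-3* had 27.8 in replicate 1 and 12.5 in replicate 2, whereas *pbs-4* had 9.69 and 30.3. Over the 29 members with a value in both, the replicates' signals had Spearman's rho = 0.28, and over the 15636 such genes in all rho was 0.32. Per the deposited descriptions, both replicates' lists derive from 1 file in common besides their own alignments, and the correlations are across genes.

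**Figure D4:**
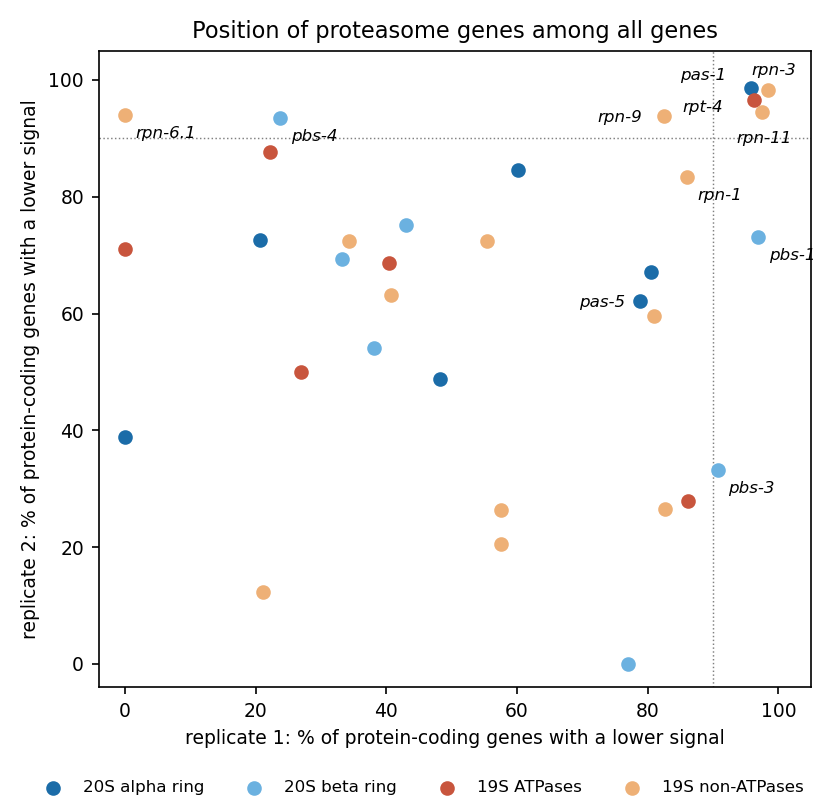
Each point is a proteasome gene, placed by the percent of protein-coding genes with a lower highest signal in replicate 1 (horizontal) and replicate 2 (vertical); a gene with no candidate is at 0 and dotted lines mark 90%. Only *rpn-3*, *rpt-4*, *pas-1* and *rpn-11* lie in the upper right corner.

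Core and cap genes were not separated by these data. In the conservative list 1 of 14 core genes (7.14%) and 3 of 19 cap genes (15.8%) had a summit, but in the replicate 1 list there were 2 core genes (14.3%) and 2 cap genes (10.5%), so the order of the shares turned. The median highest candidate signal was 17.6 for core genes and 17.0 for cap genes in replicate 1. In replicate 2 it was 19.9 for core genes and 20.4 for cap genes. The difference of medians, core minus cap, was 0.54 in replicate 1 and -0.45 in replicate 2, of opposite sign. With a window of 500 bp upstream to 200 bp downstream it was -4.1 in replicate 1, so its sign also depends on the window. That narrower window left 23 members with a candidate in replicate 1, against 30 in the window used elsewhere. Within the core, the alpha ring had medians of 19.9 in replicate 1 and 19.5 in replicate 2, and the beta ring had 14.2 and 20.4. Within the cap, the ATPase genes had 13.7 and 20.1 and the other subunits 19.97 and 20.7. The lowest and highest core values in replicate 1 were 8.53 and 46.8 and those of the cap 8.73 and 73.9. The groups overlapped up to the highest core gene, *pbs-1*, and the cap genes *rpn-3* and *rpn-11* lay above every core gene in that replicate. In replicate 2 the core gene *pas-1*, at 58.2, lay above every cap gene, of which *rpn-3* was the highest at 49.7.

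Cap genes offered more annotated 5′ ends. Of the 19 cap genes 8 had several, against 0 of the 14 core genes and 5250 of all 19973 protein-coding genes. The ends spanned 2, 3 and 8 bp at *rpn-2*, *rpn-13* and *rpn-7*, whose windows hardly grow. At the other cap genes with several ends they spanned 133 bp or more, so those windows cover more sequence. With 1 end per gene, the most upstream one, *rpt-4* was no longer counted and the conservative list held 1 core and 2 cap genes. The next gene upstream was on the opposite strand for 10 core genes (71.4%) and 13 cap genes (68.4%), against 46.2% of all protein-coding genes.

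Several strong regions lay near proteasome genes but at the promoters of their neighbours. At *pbs-2*, which encodes another proteolytic subunit, a summit 1347 bp downstream of the 5′ end was called in the conservative list with signal 135. Replicate 1 had a called summit there of 72.8 and replicate 2 one of 59.6. It lies in the promoter window of *tba-2*, an alpha tubulin gene. Downstream of the ATPase gene *rpt-1*, a summit at 2330 bp with signal 136 lies in the window of *snr-4*, a spliceosomal Sm protein gene, and was called in replicate 2 (59.3) but not in replicate 1, whose nearest called summit was 48890 bp away. Upstream of *rpn-8* a summit at 3159 bp with signal 197 lies in the window of *egg-5*, with 135 in replicate 1 and 68.2 in replicate 2. These 3 regions had higher signals than that of *rpn-3*.

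The short sequences searched included GTCAT and ATCAT, core letters of SKN-1 sites, on both strands. GTCAT was found in the 300 bp centred on the summit at *rpn-11* and *pbs-1*, with 2 matches each, and at *pas-1* and *rpt-4*, with 1 each. The window at the *pas-5* summit of replicate 1 held 3 matches to GTCAT. At *rpt-4* it began 3 bases before the summit. At *rpn-3* GTCAT had no match, and ATCAT had 2 that overlap, the first of which ends the printed sequence. Both are common: GTCAT occurred in 28.6% and ATCAT in 38% of the same windows at all 728 conservative summits.

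In the 300 bp upstream of a gene's 5′ end, GTCAT was present at 8 of 14 core genes (57.1%) and 9 of 19 cap genes (47.4%), against 36.3% of all promoters. ATCAT was present at 57.6% of the members and 53.1% of all promoters. GTCAT was thus found in a larger share of proteasome promoters, core and cap alike, than of windows at UNC-98::GFP summits (28.6%). All promoters also exceeded that share, so the difference is not particular to proteasome genes. The windows also differ, upstream of a 5′ end in one case and centred on a summit in the other. Such a match describes letters and not a bound site.

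The heat shock element core GAANNTTC had 2 matches in the 300 bp window at *rpn-3* and 1 at *pas-1*. One at *rpn-3* began 17 bases before the summit and gives the first capitals of the printed sequence. This element was in 20.7% of windows at conservative summits. It occurred upstream of 5 core genes (35.7%) and 4 cap genes (21.1%), against 19% of all promoters. ACGTCA, part of the cyclic AMP response element, lay near the summits of *rpt-4* and *pbs-1*, and was in 8.38% of conservative windows. It was upstream of 2 core genes (14.3%) and 5 cap genes (26.3%), against 2007 of 19973 promoters. At *pbs-1* it overlaps a match to GTCAT, so these 2 matches are not separate.

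Of the other sequences, TTTCAG, the letters of a worm splice acceptor, stood upstream of 13 core genes (92.9%) and 11 cap genes (57.9%), against 48% of all promoters. TGATAA, known from promoters of gut genes, was upstream of 2 core genes (14.3%) and 8 cap genes (42.1%), against 30.8% of all promoters. These 2 differed most between core and cap, in opposite directions. TATAAA was found at 33.3% of members and 39.6% of all promoters, GAGAGA at 21.2% and 21.6%, and the E box CACGTG at 3.03% and 5.73%. The median GC content of the 300 bp upstream was 32.2% for core genes and 33% for cap genes, against 33.3% for all promoters and 40.3% at conservative summits. No test was made of these shares.

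Genes that work with the proteasome were looked up in 4 lists. Of 60 symbols 58 matched a protein-coding gene, and 3 of these (5.17%) had a conservative region, against 3.16% of all protein-coding genes. All 3 were among the 19 matched proteasome partners (15.8%). *cdc-48.1*, a gene for the segregase CDC-48, which extracts ubiquitinated proteins, had signal 281 (chrII:10563507-10563637, 173 bp upstream of its 5′ end), and was called in replicate 1 with 205 and in replicate 2 with 71.2. *ufd-3*, the gene of a CDC-48 cofactor, had signal 212 (chrII:9940572-9940687, 147 bp upstream), with 112 in replicate 1 and 104 in replicate 2. Both passed the threshold in each replicate alone. No proteasome subunit gene did, but the replicate 2 list alone held 1.79% of all genes, and 33 genes would hold few or none. This zero is therefore no result about the subunits. *cdc-48.2*, the other gene for this segregase, had signal 94.3 through a region 923 bp upstream that also lies in the window of *ctns-1*. Its highest candidate in the window was 50.6 in replicate 1, and in replicate 2 no candidate summit lay in the window. Candidates just outside the window were not looked up for this gene. *cdc-48.2* was called neither in the second series list nor in a replicate's own list.

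The 19 matched genes of ubiquitin and its activation, the 7 of the COP9 signalosome, whose subunits resemble those of the proteasome lid, and the 13 of cullins and the SCF core had 0 conservative regions. Against 3.16% of all genes, lists this short would hold few or none, so these zeros are no result about them. Beyond the conservative list, the ubiquitin conjugating enzyme gene *let-70* was called in replicate 2 alone (44.7, 846 bp upstream, shared with *klc-1*). The ubiquilin gene *ubql-1* was called in the second series list (112) and in replicate 1 (87.8), through a region also in the window of *pdi-3*. The medians of the highest candidate signal over all 58 genes were 19.7 in replicate 1 and 20.04 in replicate 2, next to 17.3 and 20.1 for the proteasome genes.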

How the data were processed

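ChIP-seq of UNC-98::GFP was measured in 2 biological replicates of 1 group. Per the labels, fragments spanned 200 to 800 bp. Per the deposited descriptions, all lists are on ce11 and derive from each replicate's alignments and shared source files; no aligner, peak caller or version is stated there. The authors deposited for each region a signal value of unstated scale and a summit offset, and in ranked lists the −log10 of the global IDR, capped at 5. Peak lists exist for each replicate and for both together; 32 further columns name no sample and were not used. Read depth is unknown, so no interval is given.

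Genes came from Ensembl release 115 (WBcel235, the same assembly) and sequence from RefSeq. A gene was counted when a summit lay from 1000 bp upstream to 500 bp downstream of a protein-coding transcript's 5′ end; Python 3.11.15 and pandas 2.3.3 were used, and the assignment was tested on simulated data. Comparisons are descriptions by count and median beside all genes, without a test. The members and lists were chosen with earlier results of these data known. The rule for naming covered members with a called summit, the 3 highest and 3 lowest others by the lower of their standings in the replicates (4 tied as lowest), called genes of the related lists and genes that share a called region; the rest were named by ring, and the called summits outside promoter windows were singled out after their values were seen. Alternatives covered list, threshold, window, 5′ ends, gene assignment and summary.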

Additional observations from a re-analysis of the deposited data

How the results depend on the processing

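The conservative list held 4 members, 1 core and 3 cap, and the count of members stayed within 1.5 times of that in the second series list (3), with the narrower window of 500 bp upstream to 200 bp downstream (3), with the wider one of 2000 bp upstream (5), with the outermost 5′ end alone (3), with any overlap of region and window (5) and with the ends of all transcripts, an alternative chosen after seeing the data (4). It was 0 at an IDR of 0.001, where core and cap were 0 each, 1 among regions at or above the median signal (0 core and 1 cap) and 2 with the nearest gene alone (0 core). With 1 replicate left out it ranged from 0 to 4 for the members, from 0 to 2 for the core and from 0 to 2 for the cap; 0 is the value without replicate 1. The core count was 0 in the narrower window and 2 in the wider one and by overlap, where *pas-5* was added. At *rpn-3* the −log10 IDR was 2.98, just under the 3 that an IDR of 0.001 requires. For the changed thresholds, windows, 5′ ends and overlap the share of all genes was not computed. These counts therefore cannot be set against all genes.

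The median signal of the members in replicate 1 was 13.8 in the narrower and 22.0 in the wider window, the mean was 22.5, and the median percentile within the ranked list was 73.6, against 83.8 in replicate 2. Values in the narrower window are over fewer genes. It left 23 members with a candidate in replicate 1 and 19 in replicate 2, against 30 and 32 in the main window. Core minus cap in replicate 1 reversed to -4.1 in the narrower window, -3.86 in the wider one, -0.61 with members without a candidate at 0 and -3.21 for the mean, and was 2.34 in percentiles. In replicate 2 it was -1.45 in the narrower window and -1.31 in percentiles, and reversed to 1.06 in the wider window, 0.13 with the outermost 5′ end and 0.99 for the mean. The cause of these reversals was not tested. No paired analysis was possible because there is 1 group. The depth behind the lists is unknown.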
